A study of Mus musculus with 4 samples.

Results

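The genes described here are 10 genes of glycolysis, Slc2a1, Hk1, Hk2, Pfkp, Aldoa, Tpi1, Pgk1, Pgam1, Eno1 and Ldha, measured in 4 lines of L1210 mouse leukemia cells. They were taken as every probe whose gene symbol in the deposited table is one of these names, which gave 17 of the 55681 gene probes and 10 of the 24561 gene symbols on the array. Slc2a1, Hk2, Aldoa, Pgam1 and Eno1 had 1 probe each, Pfkp, Tpi1 and Pgk1 had 2, and Hk1 and Ldha had 3. Every one of the 17 probes was well above background in each line, and none was saturated or marked as an outlier.

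L1210 is a lymphocytic leukemia line from DBA mice, labelled here as DBA subline 212. All 4 lines were made by infecting it with lentivirus and sorting the GFP-positive cells by flow cytometry, and they were grown in the same medium. L1210-control received the control construct. L1210-Fbxw11a, L1210-Fbxw11c and L1210-Fbxw11d received a transcript variant of Fbxw11, an F-box protein that picks substrates for an SCF ubiquitin ligase. Fbxw11a is the full-length form, Fbxw11c lacks an exon in frame, and Fbxw11d lacks that exon and the next. Each line is a single sorted population measured on 1 array, so a line, its culture, its RNA and its array cannot be told apart, no test across samples was possible, and no p-value is given. The purpose of the arrays was to compare gene expression in each line given an Fbxw11 variant with the control line.

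The 75th percentile of the gene signals was 620.2 in the control line, 627 in the Fbxw11a line, 672 in the Fbxw11c line and 954 in the Fbxw11d line, and 62.5% to 68.7% of gene probes were well above background. The array of the Fbxw11d line stood alone on slide 2, and the other 3 arrays shared slide 1. The 2 probes of Fbxw11 itself gave log2 ratios to the control of 0.31 and 0.21 in the Fbxw11a line, 0.27 and 0.22 in the Fbxw11c line, and 0.03 and 0.18 in the Fbxw11d line. The paper reports a check of high Fbxw11 levels in these lines by real-time RT-PCR and western blotting. Whether the inserted constructs hold the target sequences of these probes was not tested. Of 17 lymphoid marker genes on the array, 10 were well above background on all 4 arrays. Cd3e had a signal of 1293 in the control line, and Cd4 one of 3020 by its first probe and 72.4 by its second. The B-cell genes Cd79b and Ebf1, the early B-cell gene Igll1 and the T-cell genes Cd3g and Thy1 were not above background on any array. The detection floor of the control array, the lowest signal of a probe well above background, was 18.1.

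Glycolysis splits glucose into pyruvate in the cytosol and yields ATP and NADH without oxygen. Glucose enters through a transporter, is phosphorylated and split into trioses in an upper phase that spends ATP, and is turned into pyruvate in a lower phase that returns it. Lactate dehydrogenase then converts pyruvate to lactate and restores NAD+, which lets the pathway run fast in proliferating and leukemic cells. Several of these genes are textbook targets of the hypoxia-inducible factor HIF-1.

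Each array probe is a 60-base oligonucleotide, and its sequence decides which transcript it reads. The following 5 probes are shown because they read the inner part of their transcripts and each has an open reading frame through all its bases, so that they can be set against the coding message of these enzymes. All coordinates are those of the deposited table in mouse build mm9. The first, the third probe of Hk1, lies at chr10:61732717-61732776 on the minus strand and starts at base 2983 of its transcript. The first probe of Pfkp covers chr13:6581718-6583872 on the minus strand, a stretch longer than the probe, so that it crosses a splice junction, and starts at transcript base 2138. The second probe of Tpi1 lies at chr6:124761923-124761982 on the minus strand and starts at base 634. The second and the third probes of Ldha lie at chr7:54107294-54107353 and chr7:54103010-54103069 on the plus strand and start at bases 970 and 351.
Hk1, the third probe: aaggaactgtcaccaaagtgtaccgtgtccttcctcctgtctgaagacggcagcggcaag
Pfkp, the first probe: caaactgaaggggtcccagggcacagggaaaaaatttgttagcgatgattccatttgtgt
Tpi1, the second probe: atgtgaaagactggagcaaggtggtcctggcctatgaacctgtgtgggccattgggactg
Ldha, the second probe: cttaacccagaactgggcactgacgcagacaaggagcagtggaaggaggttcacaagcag
Ldha, the third probe: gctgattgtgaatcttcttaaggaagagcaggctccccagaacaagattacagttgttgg

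The 2 probes of Pgk1 overlap in a run of 53 bases, so they are close to a repeat measurement of the same stretch. Their first 30 bases are shown with the shared part in capitals. The deposited table places them at chrX:103398640-103398699 and chrX:103398646-103398700 on the plus strand, while the scanner files place both on chromosome 3 and name the second one Gm5537, so that signal from a near-identical copy cannot be told apart from Pgk1.
Pgk1, the first probe: ttcctgtGCTCCTAAGTCAACCTAGTGTTT
Pgk1, the second probe: tgcacaGCTCCTAAGTCAACCTAGTGTTTT

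Other probes of the set also share runs of at least 20 bases with probes for other targets. The Eno1 probe shares 53 bases with a probe for Eno1b, whose log2 ratios to the control were -0.06, -0.08 and 0.19 in the Fbxw11a, Fbxw11c and Fbxw11d lines, so the values given for Eno1 cannot be separated from those of this copy. The first probe of Hk1 shares 24 to 38 bases with 6 other probes, among them a probe for the ribosomal protein gene Rpl17, and its value for Hk1 is therefore uncertain. The first probe of Ldha shares 33 bases with a probe that carries no gene name, and the second probe of Tpi1 shares 36 bases, on the opposite strand, with another probe that carries none. The second and the third probes of Hk1 and Ldha, and both probes of Pfkp, shared no such run with another target.

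None of the 10 glycolysis genes reached a fold change of 2, the study's threshold, or of 1.5 in any of the 3 lines with the arrays scaled on the 75th percentile, and none of the 17 probes did. The 2-fold count was also 0 under every other scaling, while scaling on spike-ins put 4 genes, Hk2, Tpi1, Pgam1 and Eno1, past 1.5-fold above the control in the Fbxw11d line, where all genes moved up. By the brightest probe of each gene, the farthest values in the 3 lines were a level 1.16-fold below the control line for Pgk1 in the Fbxw11a line, 1.30-fold below it for the glucose transporter Slc2a1 in the Fbxw11c line and 1.26-fold below it for the aldolase Aldoa in the Fbxw11d line. In the Fbxw11c line all 10 genes lay below the control, with a median log2 ratio of -0.10, a count that was 7, 8 or 9 under 3 other ways of scaling the arrays. In the Fbxw11a line 3 genes lay below and 7 above the control (median 0.02), and in the Fbxw11d line 6 lay below and 4 above it (median -0.03), whereas scaling on spike-ins put all 10 below the control in the Fbxw11a line and all 10 above it in the Fbxw11d line. In these bulk RNA samples, fewer cells with a message and less message per cell cannot be told apart. Here a gene is read by its probe of highest mean signal, and each array was scaled on its 75th percentile.

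These counts are read against the same counts over the array. Among all genes well above background on at least 1 array of the pair, 4.45% were past 2-fold and 10.8% past 1.5-fold in the Fbxw11a line, 3.88% and 9.87% in the Fbxw11c line, and 5.75% and 14.7% in the Fbxw11d line. The 0 of 10 glycolysis genes is near these shares, and nothing is read from it about the genes as a set. The share of genes with a log2 ratio below 0, among those well above background on both arrays, was 49% in the Fbxw11a line, 46.5% in the Fbxw11c line and 44.8% in the Fbxw11d line, beside 3, 10 and 6 of the 10 glycolysis genes. Over the 16252 genes measured on all 4 arrays the median log2 ratios were 0.00, 0.02 and 0.04 in the same order. The median of the glycolysis genes minus that of all genes was 0.02, -0.12 and -0.08.

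**Figure D1:**
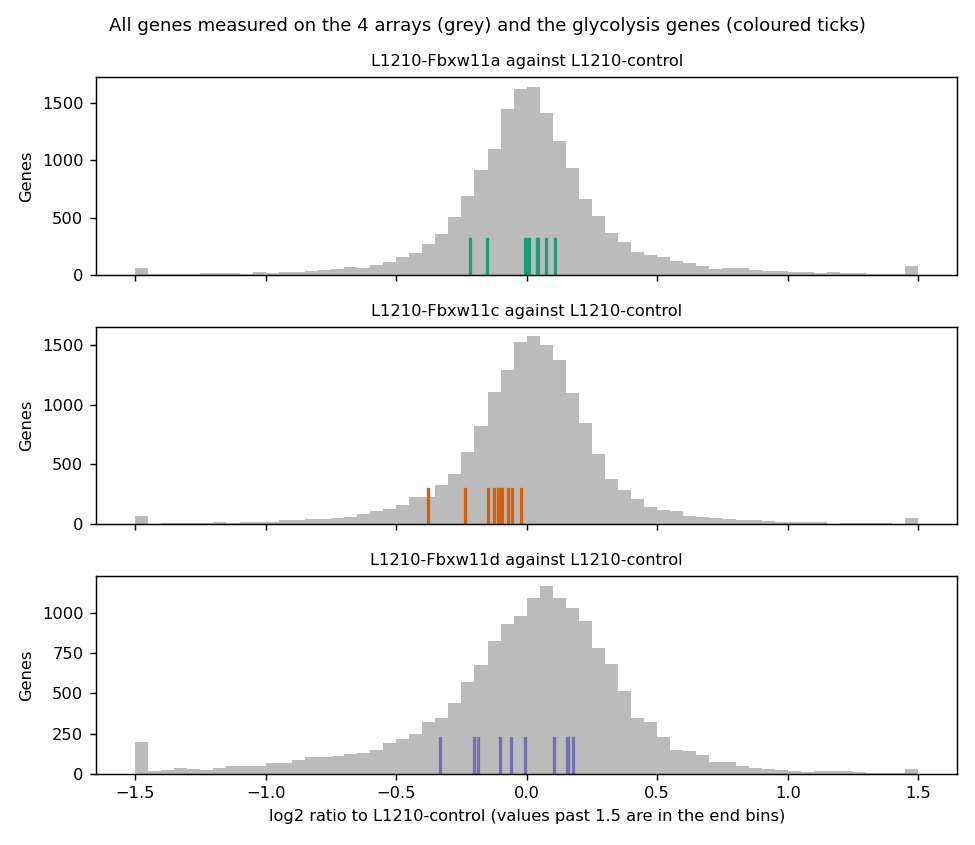
Histograms of the log2 ratio to the control line (x axis, bins of 0.05, values past 1.5 placed in the end bins) against the number of genes (y axis) for the 16252 genes measured on all 4 arrays, with 1 coloured tick for each of the 10 glycolysis genes. The ticks stand within the central peak in every line, and in the Fbxw11c line all 10 lie left of 0 with this scaling, from -0.38 to -0.02 (7 with centring on the median).

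With a single array per line the only errors available are technical. The scanner software attaches to each spot an error of 10% to 11% of its signal for these probes, which gives a log2 ratio an error of 0.20 to 0.22. A second measure came from 399 probes printed as 10 spots on each array. Their spread between spots gave an expected SD of 0.08 to 0.11 for a log2 ratio at the brightness of the glycolysis probes, with the exception of the dim second probe of Pfkp. Only 2 of these repeated probes were as bright as the brightest bin, so the next bin was used there. A difference is said here to pass the spot limit or the scanner limit when it is larger than 1.96 times the respective error. Neither error covers differences between cultures of the same line.

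Slc2a1 encodes GLUT1, the transporter through which glucose enters most cells. Its scaled signal was 9915 in the control line, 9860 in the Fbxw11a line, 7628 in the Fbxw11c line and 8704 in the Fbxw11d line. The control and the Fbxw11a line were nearly level, and the lowest value was that of the Fbxw11c line. The log2 ratios were -0.01, -0.38 and -0.19, and the value in the Fbxw11c line was the farthest from the control of any glycolysis gene in any line. It passed the spot limit but not the scanner limit, and 15.4% of all genes had a log2 ratio of at least this size in that line.

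The hexokinases trap glucose in the cell by adding a phosphate. Hk2, the isoform typical of muscle and of many tumors, gave signals of 5598 in the control line, 5900 in the Fbxw11a line, 5054 in the Fbxw11c line and 6013 in the Fbxw11d line. The Fbxw11c line was again lowest, by a log2 ratio of -0.15 to the control, and the other lines were 0.08 and 0.10 above it. Between lines with variants, Hk2 was lower in the Fbxw11c line than in the Fbxw11a line by a log2 difference of -0.22 and higher in the Fbxw11d line than in the Fbxw11c line by 0.25, and both passed the spot limit.

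Hk1, the widely expressed isoform, had 3 probes that did not rank the lines alike. The first probe, whose sequence is partly shared with other targets, read 135280 in the control line, 136041 in the Fbxw11a line, 124025 in the Fbxw11c line and 117767 in the Fbxw11d line. The second read 72041, 60797, 61842 and 74714 and the third, whose sequence is printed above, 1830, 2006, 1731 and 1843 in the same order. The log2 ratios in the Fbxw11a line were thus 0.01, -0.24 and 0.13 by the 3 probes, and in the Fbxw11d line -0.20, 0.05 and 0.01. The Fbxw11c line was below the control by all 3, at -0.13, -0.22 and -0.08.

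Pfkp encodes the platelet form of phosphofructokinase, the committed step of the pathway. Its first probe, over the splice junction printed above, read 2350 in the control line, 2530 in the Fbxw11a line, 2237 in the Fbxw11c line and 2341 in the Fbxw11d line. These are log2 ratios of 0.11, -0.07 and -0.01, and none passed the spot limit. The second probe was dim, at 88.2, 104, 89.7 and 76.4, and its log2 ratios of 0.24, 0.02 and -0.21 had an expected spot SD of 0.49 to 0.68. It was the only one of the 17 probes that was not below the control in the Fbxw11c line.

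Aldoa encodes the aldolase that splits fructose bisphosphate into trioses. Its signals were 169688 in the control line, 170035 in the Fbxw11a line, 158705 in the Fbxw11c line and 134873 in the Fbxw11d line. The control and the Fbxw11a line were alike to within 0.01 on the log2 scale, and the Fbxw11d line was lowest, at a log2 ratio of -0.33. That value passed the spot limit but turned to 0.26 with spike-in scaling, and 30.9% of all genes had one of at least this size in the Fbxw11d line. The step from the Fbxw11c line down to the Fbxw11d line, -0.23, was the only one among the 30 steps between neighbouring lines in the order of levels, over the 10 genes, that passed the spot limit, and none passed the scanner limit.

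Tpi1 encodes triosephosphate isomerase, which makes both trioses available to the lower phase. Its first probe read 77291 in the control line, 79682 in the Fbxw11a line, 71661 in the Fbxw11c line and 85933 in the Fbxw11d line. The log2 ratios were 0.04, -0.11 and 0.15, and by the second probe 0.09, -0.06 and 0.02. Both probes put the Fbxw11c line lowest, and the difference of 0.26 between the Fbxw11d line and the Fbxw11c line by the first probe passed the spot limit.

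**Figure D2:**
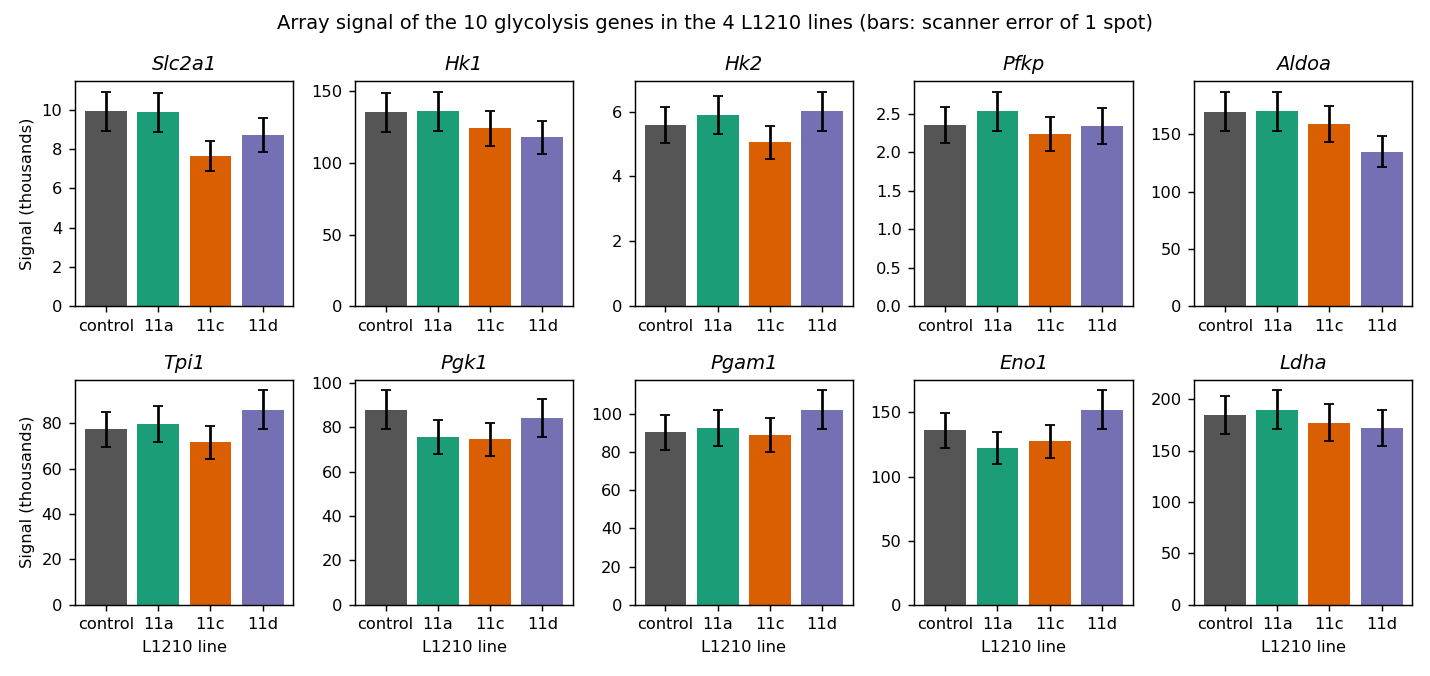
Signal scaled to the control array (y axis, starting at 0) of the brightest probe of each glycolysis gene in the control line and the lines with Fbxw11a, Fbxw11c and Fbxw11d (x axis, 1 array each). Error bars are the scanner error of the single spot, 10% of the signal, and overlap within every panel for neighbouring levels. The lowest bar is the Fbxw11c line for 6 genes and the Fbxw11d line for 3.

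Pgk1 encodes phosphoglycerate kinase, the first ATP-forming step. Its first probe read 87818 in the control line, 75595 in the Fbxw11a line, 74595 in the Fbxw11c line and 84148 in the Fbxw11d line, and the second 77681, 66806, 64493 and 70635. Both probes put the control highest and the Fbxw11a line and the Fbxw11c line lowest. The log2 ratios were -0.22, -0.24 and -0.06 by the first and -0.22, -0.27 and -0.14 by the second. The first probe's values in the Fbxw11a line and the Fbxw11c line passed the spot limit and not the scanner limit.

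Pgam1, a phosphoglycerate mutase, read 90252 in the control line, 92681 in the Fbxw11a line, 88888 in the Fbxw11c line and 102068 in the Fbxw11d line. The log2 ratios of 0.04, -0.02 and 0.18 did not pass the spot limit. Eno1, the enolase that forms phosphoenolpyruvate, read 136032, 122284, 127551 and 151990 in the same order, with log2 ratios of -0.15, -0.09 and 0.16. The Fbxw11d line was above the other 3 lines for both genes, and for Eno1 its difference from the Fbxw11a line, 0.31, and from the Fbxw11c line, 0.25, passed the spot limit.

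Ldha encodes the lactate dehydrogenase subunit that makes lactate. By its first probe it had the smallest span over the 4 lines of all 10 genes, 0.14 on the log2 scale, with signals of 184258 in the control line, 189533 in the Fbxw11a line, 177071 in the Fbxw11c line and 171801 in the Fbxw11d line. The second probe read 24901, 22868, 22990 and 27099, and the third 5575, 5479, 5421 and 4787. In the Fbxw11d line the 3 probes gave log2 ratios of -0.10, 0.12 and -0.22, so they did not settle a direction for this gene. In the Fbxw11c line all 3 were below the control, at -0.06, -0.12 and -0.04.

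**Figure D3:**
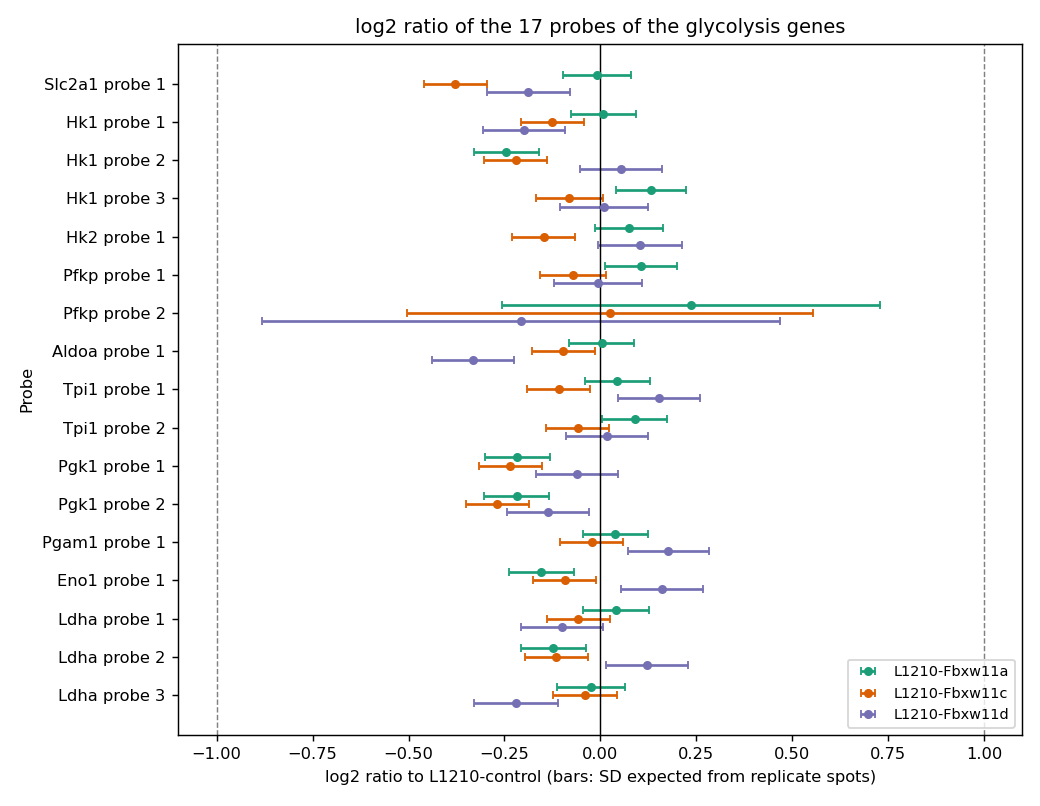
log2 ratio to the control line (x axis) of each of the 17 probes (y axis) in the 3 lines with Fbxw11 variants, with bars for the SD expected from repeated spots and dashed lines at the 2-fold threshold. Every point stands between -0.38 and 0.24, and 16 of the 17 points of the Fbxw11c line are below 0 with scaling on the 75th percentile, as plotted.

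The span between the highest and the lowest of the 4 lines ran from 0.14 for Ldha to 0.38 for Slc2a1, with a median of 0.24, beside a median span of 0.35 over all 16252 genes. The control line was the highest line for 2 genes, the Fbxw11a line and the Fbxw11d line for 4 each, and the Fbxw11c line for none. The Fbxw11c line was lowest for 6 genes, the Fbxw11d line for 3 (Hk1, Aldoa and Ldha) and the Fbxw11a line for 1 (Eno1). Of the 60 differences between pairs of lines over the 10 genes, 12 passed the spot limit and 0 the scanner limit. Of these 12, 4 were differences from the control, 2 were between the Fbxw11c line and the Fbxw11a line, 2 between the Fbxw11d line and the Fbxw11a line, and 4 between the Fbxw11d line and the Fbxw11c line. The summed signal of the 10 genes was 0.984 times that of the control in the Fbxw11a line, 0.932 times in the Fbxw11c line and 0.963 times in the Fbxw11d line.

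The brightness of a probe moved with its ratio. Of all probes with a signal above 79391 in the control line, 926 probes in all, 68.1% were below the control in the Fbxw11a line, 72.2% in the Fbxw11c line and 76.7% in the Fbxw11d line, with median log2 ratios of -0.04, -0.05 and -0.10. The 6 glycolysis probes in this bin had medians of 0.006, -0.09 and -0.08. Between signals of 9924 and 39695 the median of all probes was 0.05 in the Fbxw11c line and 0.07 in the Fbxw11d line, while the 2 glycolysis probes there, the second of Tpi1 and of Ldha, were both below 0 in the Fbxw11c line and both above 0 in the Fbxw11d line. Slc2a1 and Hk2, in the bin from 2481 to 9924, were below the median of their bin, 0.04, in the Fbxw11c line. The part of brightness in these values was not tested further.

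**Figure D4:**
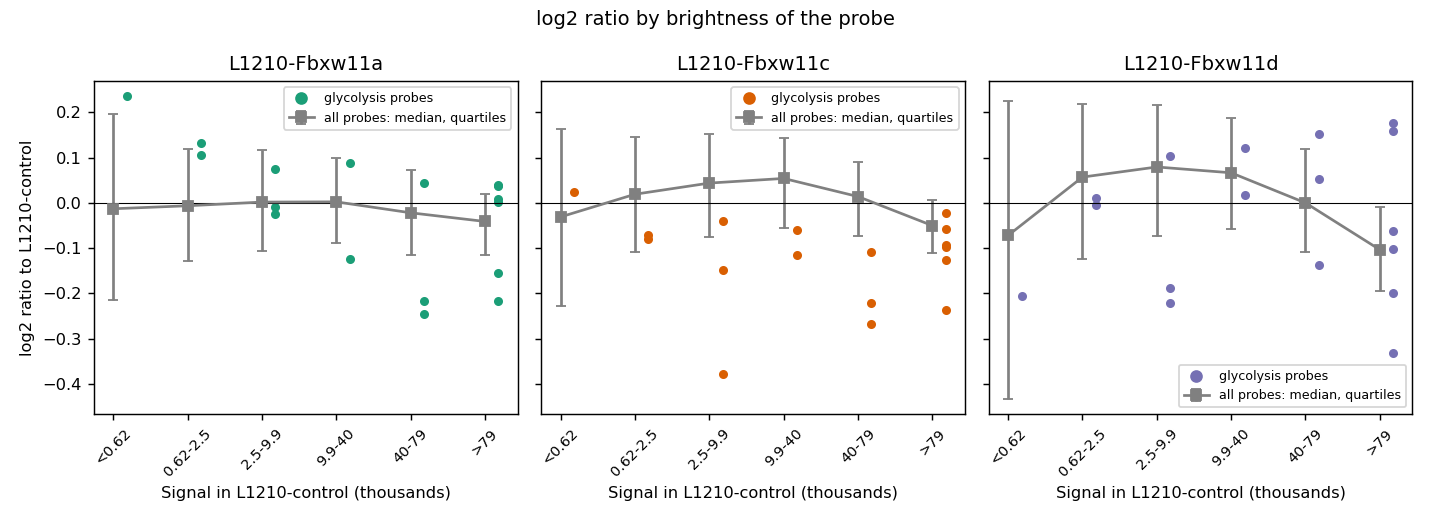
log2 ratio to the control line (y axis) by signal in the control line (x axis, 6 bins), with grey squares and bars for the median and quartiles of all probes and coloured points for the 17 glycolysis probes. The grey median bends down in the brightest bin in all 3 lines, to -0.10 in the Fbxw11d line, and in the Fbxw11c line the glycolysis points lie under it except for the second probe of Pfkp and the probe of Pgam1.

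How the arrays are put on a common scale decides the sign of several of these values. Of 30 values, 10 genes in 3 lines, those of the Fbxw11d line depended on it most. With each array centred on its median, all genes in the Fbxw11d line had a median of 0.26, and the glycolysis genes one of 0.18 with 9 of 10 above the control. With scaling on 8 spike-in probes, which differed from the control by 0.13, 0.15 and -0.59 after scaling on the 75th percentile, all 10 genes were above the control in the Fbxw11d line (median 0.55, all genes 0.63, with Hk2 at 0.69, Tpi1 at 0.74, Eno1 at 0.75 and Pgam1 at 0.76) and all 10 below it in the Fbxw11a line (median -0.11, all genes -0.13). In the Fbxw11c line 10 genes were below the control with the 75th percentile, with normexp background correction and with the spike-ins, 9 with the authors' normalized values, 8 with quantile normalization and 7 with centring on the median. Relative to the median of all genes, all 10 were lower in the Fbxw11c line under each of these 6 scalings, by a median of -0.09 to -0.12. The 75th percentile, the median and the spike-ins each shift all genes of an array by 1 constant, so this difference is -0.12 in all 3 by construction, and only normexp, quantile normalization and the authors' values could have changed it. Slc2a1 in the Fbxw11c line ranged from -0.53 to -0.31 over them, and Aldoa in the Fbxw11d line from -0.33 to 0.26.

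**Figure D5:**
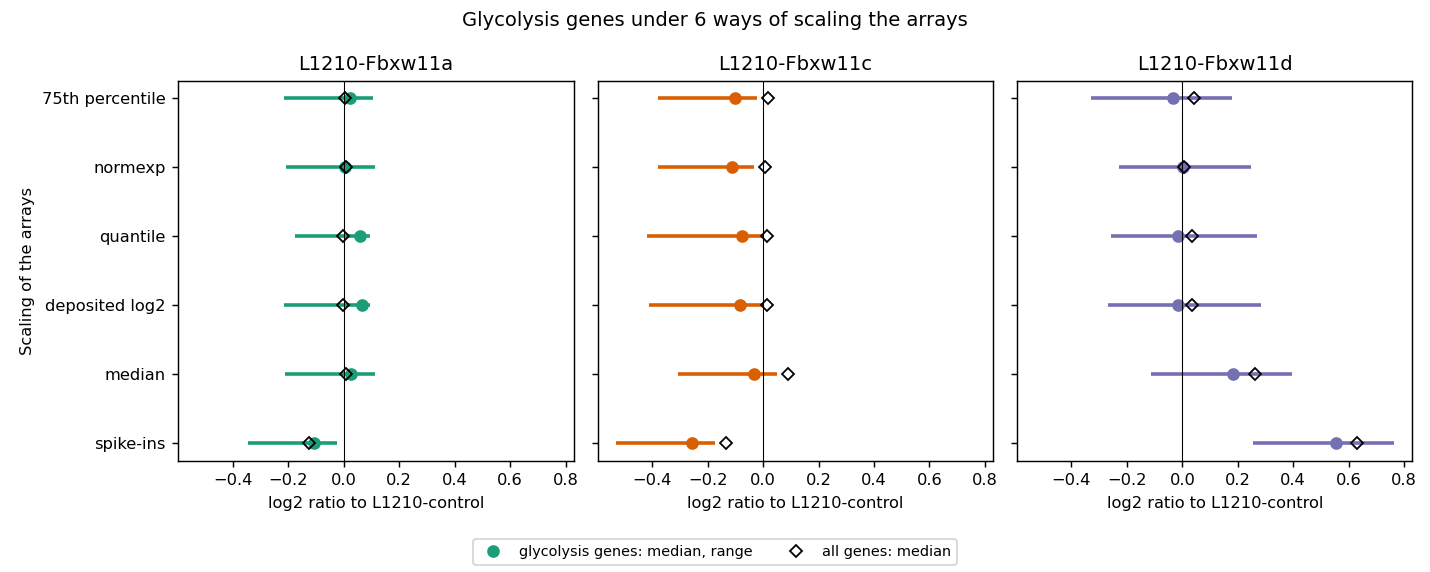
log2 ratio to the control line (x axis) of the 10 glycolysis genes in each line under 6 scalings of the arrays (y axis), as the median (filled circle) and range (line), with the median of all genes as an open diamond. In the Fbxw11c line the circle stands left of the diamond under every scaling, by the same distance in the 3 that shift all genes by a constant. In the Fbxw11d line circle and diamond move together to the right with centring on the median and with the spike-ins.

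Gapdh, Gpi1 and Pkm catalyze steps between those of the 10 genes and complete the route from glucose to pyruvate. Gapdh, which forms NADH and is also a common reference gene, had 8 probes, all below the control in the Fbxw11a line (-0.19 to -0.02) and in the Fbxw11c line (-0.20 to -0.09) and 7 of 8 below it in the Fbxw11d line (-0.32 to 0.06). Its brightest probe read 279470 in the control line, 274983 in the Fbxw11a line, 251321 in the Fbxw11c line and 240835 in the Fbxw11d line. Gpi1, the isomerase after hexokinase, was within 0.18 of the control by all 3 probes in every line. Pkm, the pyruvate kinase of proliferating cells, was at -0.16, -0.12 and 0.09. None of the 3 genes reached 1.5-fold with scaling on the 75th percentile. In the Fbxw11c line all 8 Gapdh probes were below the control under each of the 6 scalings, whereas in the Fbxw11d line 2 were below it with centring on the median and none with the spike-ins. With the spike-ins 1 of 8 Gapdh probes, 2 of 3 Gpi1 probes and the Pkm probe passed 1.5-fold above the control in the Fbxw11d line, the highest of each at 0.65, 0.64 and 0.67.

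A list of 21 other transporters, enzymes and isozymes of the pathway, which holds these 3 genes, had 18 members well above background on all 4 arrays. Their medians were 0.02, -0.11 and 0.06 in the Fbxw11a, Fbxw11c and Fbxw11d lines, and 8, 13 and 6 of the 18 were below the control. Only Hkdc1, a hexokinase domain gene, passed 2-fold, with signals of 22.6, 39.8, 56.6 and 39.6 in the 4 lines that all lie near the detection floor and log2 ratios of 0.82, 1.32 and 0.81. Eno2, the neuronal enolase, named here after its values were seen, read 738 in the control line against 516, 453 and 487, with log2 ratios of -0.52, -0.70 and -0.60. It thus lay below the control in all 3 lines, whereas Eno1 lay above it in the Fbxw11d line. Slc2a3, a second glucose transporter also named after its values were seen, was at -0.05, -0.11 and -0.09.

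Of 19 regulators and exits of the pathway, 17 were measured on all 4 arrays and none passed 2-fold. The values farthest from 0 were those of Gpd1 and of Slc16a3, the lactate exporter MCT4. Gpd1, the glycerol phosphate dehydrogenase that draws on a triose, was at 0.71, 0.51 and 0.44 with signals of 90.5 to 148. Its expected spot SD was 0.49, 0.53 and 0.68, so none of these values passed the spot limit. Slc16a3 read 11467 in the control line, 8515 in the Fbxw11a line, 7376 in the Fbxw11c line and 11925 in the Fbxw11d line by its first probe, with log2 ratios of -0.43, -0.64 and 0.06. Its second probe gave -0.36, -0.58 and -0.03. The transporter of lactate was therefore lowest in the Fbxw11c line, as Slc2a1 was. With scaling on the 75th percentile it passed 1.5-fold there by the first probe, and the Fbxw11d line and the control were close. Scaling on the spike-ins, which were at -0.59 in the Fbxw11d line, puts the first probe past 1.5-fold above the control in that line.

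Gluconeogenesis runs the pathway backwards through a few enzymes of its own. Of 7 such genes 6 were measured on all 4 arrays, with medians of 0.11, -0.11 and 0.07, and none passed 2-fold. G6pc, the glucose 6-phosphatase of liver, was at 0.33, -0.56 and -0.72 from a signal of 111. Fbp2, a fructose bisphosphatase, was at 0.38, 0.35 and 0.34 from a signal of 23.1 near the detection floor. Both genes had the same expected spot SD as Gpd1, and none of their values passed the spot limit. Pck1, the liver enzyme that makes phosphoenolpyruvate, was not above background on any array.

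Among 16 other target genes of HIF-1, 14 were measured on all 4 arrays and none passed 2-fold. Their medians were 0.03, -0.09 and -0.17, with 6, 9 and 9 of the 14 below the control, beside 3, 10 and 6 of the 10 glycolysis genes. These counts are those with scaling on the 75th percentile. Ndrg1, a stress-response gene, read 22805 in the control line, and 24016, 15962 and 15158 in the Fbxw11a, Fbxw11c and Fbxw11d lines. Its log2 ratios were 0.07, -0.51 and -0.59 with this scaling. The spike-ins were also at -0.59 in the Fbxw11d line, so Ndrg1 was level with them there. Adm, the gene of the peptide hormone adrenomedullin, was also below the control in the Fbxw11c and Fbxw11d lines with scaling on the 75th percentile. Its log2 ratios were 0.07, -0.71 and -0.64 from a low signal of 50.7, and none passed the spot limit.

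The 12 reference genes had medians of 0.00, 0.00 and 0.05, and the farthest were Tbp, at -0.05, 0.16 and 0.28, and B2m, at -0.10, 0.00 and 0.27. Over the 3 lines they ran from -0.27 to 0.28, beside -0.38 to 0.18 for the 10 glycolysis genes. Markers of other cells moved with the lines too. Of 7 myeloid markers 5 were measured on all 4 arrays, and their summed signal was 15284 in the control line, 13134 in the Fbxw11a line, 11919 in the Fbxw11c line and 12379 in the Fbxw11d line. Among them Cd68, Itgam, Elane, Csf1r and Emr1 read 7276, 5119, 1737, 1104 and 48.3 in the control line, and the macrophage lysozyme Lyz2 was not above background on any array. The sum followed mostly Cd68, at log2 ratios of -0.37, -0.67 and -0.45, while Itgam was at -0.13, -0.10 and -0.04. Emr1 went against the sum in 2 lines, with log2 ratios of 0.91, -0.44 and 0.91 at low signal. Csf1r passed 2-fold in the Fbxw11d line by its first probe, at -1.12 with scaling on the 75th percentile. By its second probe it was at -0.26 there. Centring on the median and the spike-ins each shift all genes of this line up, which takes the first probe short of 2-fold. A further Csf1r probe was not well above background in every line. Of 5 stromal markers 3 were measured on all 4 arrays, with the collagen genes Col1a2 at 1.45, 2.10 and 2.05 and Col1a1 at 0.04, 0.38 and 0.47, and Dcn at -0.29, -0.53 and 0.33. Pdgfrb was not above background on any array, and of 4 erythroid markers only Hba-a1 was, at 1.13, 1.08 and 1.11. The summed signal of the 10 measured lymphoid markers was 4905 in the control line, 5263 in the Fbxw11a line, 5071 in the Fbxw11c line and 4912 in the Fbxw11d line. The part of other cell types in the glycolysis values was not tested.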

How the data were processed

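RNA of 4 L1210 lines was hybridized to Agilent 1-colour mouse arrays, 1 per line. The authors deposited scanner files with a processed signal intensity per spot, background-corrected by Feature Extraction (version 9.1 per the submitters' processing notes, 10.7.1.1 per the file headers), and a table with the same intensity and normalized log2 values, whose normalization is not given in the sources used here.

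Processed signals were divided by the 75th percentile of gene spots on the same array and taken to log2, and signals are printed scaled to the control array. Spots of a probe were averaged without outliers and controls. Detection needed a share of 0.5 or more of the probe's spots well above background. A gene was read by its probe of highest mean signal. No test was run, since each line had 1 array. A fold change of 2 was the threshold, and the comparisons were each variant line against L1210-control and all pairs of lines. The number of arrays limits the precision. The script that calls genes past 2-fold was tested on simulated data.

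The genes named were all 10 members with every probe, Gapdh, Gpi1 and Pkm, and in each other list the genes past 2-fold in a line (up to 6), otherwise the 2 with the largest log2 ratio in size. Members and lists were chosen with earlier results of these data known. Alternatives were quantile normalization, normexp background correction (offset 50, limma 3.58.1), spike-in scaling, median centring, the deposited log2 values, other filters on dim and outlier spots, other rules for several probes, and thresholds of 1.5 and 3. The alternative of reading Hk1 by its second probe was chosen after seeing the data. Python 3.11.15, pandas 2.3.3 and R 4.3.3 were used. All 10 symbols matched RefSeq. No protein sequences were used here. Some marker results are not reported here.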

Additional observations from a re-analysis of the deposited data

How the results depend on the processing

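No glycolysis gene passed 2-fold under any alternative, nor at the threshold of 3, and the only setting with genes past 1.5-fold was spike-in scaling, with 4 in the Fbxw11d line. The 330 single-gene values under 11 alternatives kept within the technical spread in 275 cases and moved beyond it in 55. Of these 55, 30 came from scaling on the spike-ins and 10 from centring on the median. Part of the 275 could not have moved. The other filters on dim and outlier spots changed no value, because all 17 probes were well above background and none was an outlier. Other rules for several probes could not change the 5 genes with 1 probe, and the Hk1 alternative could change Hk1 only. The median log2 ratio of the 10 genes moved with centring on the median to 0.18 in the Fbxw11d line, and with spike-in scaling to -0.11 in the Fbxw11a line, -0.26 in the Fbxw11c line and 0.55 in the Fbxw11d line. The median of all genes moved alike by construction. Reading Hk1 by its second probe, chosen after seeing the data, gave medians of 0.02, -0.10 and 0.02, with 10 genes below the control in the Fbxw11c line and 5 in the Fbxw11d line, and the dimmest probe of each gene gave 9 and 5. Leaving out a replicate was not possible with 1 array per line. The slide could not be fitted as a block, because slide 2 held L1210-Fbxw11d alone, so slide and line cannot be told apart for it. No paired analysis was possible because each line has 1 array. The precision of the ratios is limited by single spots, and only the second Pfkp probe, at 4.88 times the detection floor or more, was dim enough for background to matter.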
